A study of Mus musculus with 30 samples.

Results

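Acta2, Tagln, Cnn1, Myh11, Rgs5, Pdgfrb and Cspg4 are genes by which smooth muscle cells and pericytes are usually recognised. Their RNA was followed in the developing olfactory tissue of mouse embryos, in an epithelial (EPI) and a mesenchymal (MES) fraction, and in embryos that lack Dlx5. The genes were chosen by name. Each was read on the transcript cluster, the set of probes of a gene, that carries its symbol alone, which makes them 7 of 14860 genes read in this way. Rgs5 has 2 such clusters, and the one with the higher mean over the 30 arrays was taken. Earlier results of these data were known when the 7 genes were named, so counts of them were not blind to the values.

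RNA of 24 pools of wild type tissue was hybridised to Affymetrix Mouse Exon 1.0 ST arrays, 3 arrays each for EPI and for MES. The tissue was the E11.5 Olfactory Placode (OPL), the olfactory epithelium (OE) of E12.5 and of E14.5 embryos, and the E14.5 vomeronasal organ (VNO). The labels name the tissue at E12.5 Olfactory Placode, where the study speaks of OE, and they give no sex. The other 6 arrays hold 3 pools of wild type (WT) and 3 of Dlx5 KO tissue at E12.5, for which the labels give no fraction. The mice were F1 of a C57Black6 by DBA cross. Tissue was cut by hand from sections of the head and pooled, with at least 4 individuals to a pool. The null allele is Dlx5lacZ, mutants came from crosses of heterozygotes and WT embryos from crosses of WT parents, and for the mutant the whole lining of the nasal cavity was taken. Genotype and dissection therefore cannot be told apart. Nothing in the sources used here speaks of shared litters between pools, and the p-values reflect only how far these pools differ from each other.

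Smooth muscle cells and pericytes, together called mural cells, wrap blood vessels, and smooth muscle also surrounds glands and airways. Endothelial cells draw pericytes to growing vessels by releasing PDGF-B, which is sensed by the receptor that Pdgfrb encodes, and Notch, TGF-beta and angiopoietin signals act between both cell types. Acta2 encodes smooth muscle alpha-actin, Tagln the actin-binding protein transgelin (SM22-alpha), Cnn1 the actin-binding protein calponin and Myh11 the myosin heavy chain of mature smooth muscle. Rgs5 encodes a GTPase-activating protein that dampens G protein signals and is a marker of pericytes, and Cspg4 encodes the NG2 proteoglycan of the pericyte surface. None of these is exclusive to mural cells. Acta2 and Tagln are also expressed by myofibroblasts and by developing striated muscle, Pdgfrb by many mesenchymal cells, and Cspg4 by glial progenitors. For Rgs5 the study reports expression in the embryonic OE.

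Serum response factor and its partner myocardin switch on contractile genes through the CArG box, a short element rich in A and T. The 250 bases before the start used in the RefSeq promoter table are shown for Acta2, Rgs5 and Cspg4, the 3 genes that rose in both fractions, with CArG boxes in which at most 1 base departs from the consensus in capitals.
Acta2: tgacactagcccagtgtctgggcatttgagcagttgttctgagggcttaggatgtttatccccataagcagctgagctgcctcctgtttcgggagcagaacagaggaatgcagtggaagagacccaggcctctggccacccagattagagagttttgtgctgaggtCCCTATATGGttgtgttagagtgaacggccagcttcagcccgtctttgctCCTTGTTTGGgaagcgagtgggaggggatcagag
Rgs5: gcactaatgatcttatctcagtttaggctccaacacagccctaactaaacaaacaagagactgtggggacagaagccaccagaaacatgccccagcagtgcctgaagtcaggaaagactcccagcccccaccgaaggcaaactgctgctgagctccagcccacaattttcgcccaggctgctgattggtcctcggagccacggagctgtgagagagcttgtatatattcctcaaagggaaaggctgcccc
Cspg4: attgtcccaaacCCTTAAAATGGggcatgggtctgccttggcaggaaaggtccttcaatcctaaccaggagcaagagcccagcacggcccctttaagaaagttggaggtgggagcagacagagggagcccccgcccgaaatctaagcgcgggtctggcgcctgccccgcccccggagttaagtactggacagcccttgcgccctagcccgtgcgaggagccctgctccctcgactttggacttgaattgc
The windows are chr19:34255374-34255623 on the minus strand for Acta2, chr1:169655251-169655500 on the plus strand for Rgs5 and chr9:56864854-56865103 on the plus strand for Cspg4, in the build GRCm38.p6, and come from RefSeq. For Acta2 and Cnn1 that start lies inside the annotated span of the gene, so the window overlaps this span. The pattern reads the same on both strands. Acta2 held 2 such boxes, which begin 84 and 34 bases before the start, Cspg4 held 2 that overlap, and Rgs5 and Cnn1, also searched, held none. No window of these 4 genes held a box that meets the consensus in full. Tagln, Myh11 and Pdgfrb are not among the 4, and this search gives no result for them. Of 27025 promoters of this length, 18.9% held a box with at most 1 departing base and 1.40% one that meets the consensus. A match is a description of letters, and none of the arrays measured binding.

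The deposited values are on the log2 scale, and a difference of 1 is a doubling. The medians over all clusters were 6.41 to 7.17 on the 24 arrays of the time course and 8.44 to 8.61 on the 6 arrays of the Dlx5 comparison, so levels were not compared between these sets. Within the time course the EPI OPL E11.5 arrays had the lowest medians, at 6.41 to 6.44. The median difference over all clusters was 0.54 for EPI E12.5 against E11.5, 0.18 for EPI OE E14.5 and 0.31 for EPI VNO E14.5 against E11.5. It was -0.66 for EPI against MES at E11.5, -0.18 at E12.5, -0.33 in the OE E14.5 and -0.24 in the VNO E14.5. A difference in favour of a later EPI group, or of MES, therefore holds this shift. For EPI OE E14.5 against OE E12.5 the shift was -0.33. Values less the shift are given for the main differences, and all others hold it, as do levels in EPI given as a percentage of MES. Once arrays were centred on their medians, 201 genes were called higher and 467 lower in EPI at E12.5 than at E11.5, in place of 2610 and 53. For EPI against MES the centred counts were 577 higher and 211 lower at E11.5, 1104 and 151 in the OE E14.5 and 1423 and 202 in the VNO E14.5, in place of 119 and 3795, 134 and 954, and 405 and 777. At E14.5 centring left a shift of the other sign, with medians over all clusters of 0.17 in the OE and 0.11 in the VNO.

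The fraction labels were checked against markers. Epcam, an adhesion molecule of epithelia, was higher in EPI than in MES at every stage, by 2.18, 1.76, 0.98 and 0.87, the last of these under the limit for a call, and in MES it stood at 8.63 at E11.5 and at 10.10 and 10.37 in E14.5 OE and VNO. Of 11 epithelial genes, 9 were higher in the MES of both tissues at E14.5 than at E11.5. Of 11 genes of fibroblasts, 7 were lower in EPI than in MES at E11.5, 5 at E12.5 and none at E14.5. In the VNO at E14.5, 2 of these 11 were higher in EPI, as were 9 of 13 skeletal muscle genes, and 3 of 9 genes of the olfactory neuron lineage were lower there. Of all genes, 25.6% were called lower in EPI at E11.5, 3.5% at E12.5, and 6.44% and 5.25% in OE and VNO at E14.5. In that VNO 2.74% were called higher in EPI. In MES 5.06% and 6.35% were called higher in OE and VNO at E14.5 than at E11.5. The markers therefore set the fractions apart at E11.5 and E12.5 and much less at E14.5, where part of them went against the labels of the VNO. In such samples more cells of a type and more RNA per cell cannot be told apart.

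**Figure D1:**
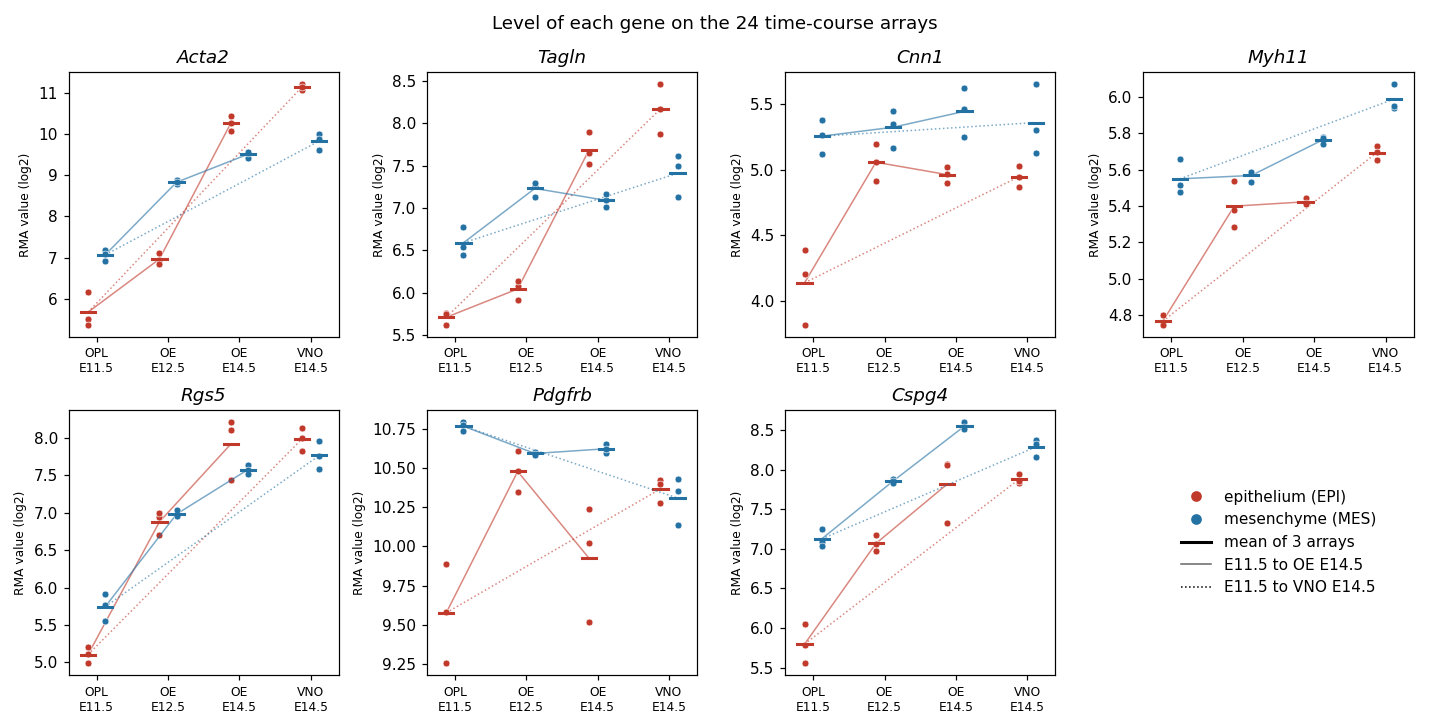
Level of each gene (y axis, RMA value on the log2 scale, a scale of its own in each panel) on the 24 arrays of the time course, by stage and tissue (x axis). Points are arrays, bars are means of 3, red is EPI and blue is MES. Mean Acta2 in EPI climbed from 5.67 (OPL E11.5) to 11.16 (VNO E14.5) and passed the MES, while Pdgfrb stayed between 9.26 and 10.79 on every array.

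A gene was called different between 2 groups at an adjusted p of at most 0.05 in limma and a log2 difference of at least 0.9. Beside each count of the 7 genes stands the share of all 14804 genes tested that were called in the same direction. In EPI, 5 of the 7 genes were higher at E12.5 than at E11.5 (17.6% of all genes), 4 in OE E14.5 than at E11.5 (14%), 5 in VNO E14.5 than at E11.5 (20.5%) and 3 in OE E14.5 than in OE E12.5 (3.17%). In MES, 2 were higher at E12.5 than at E11.5 (1.44%), 3 in the OE E14.5 than at E11.5 (5.06%) and 3 in the VNO E14.5 than at E11.5 (6.35%). None was called in MES OE between E14.5 and E12.5, where limma called 4.19% of all genes in either direction. There 4 of the 7 had an unadjusted p under 0.05, and Rank Products called none. No gene of the 7 was called lower at a later stage. Groups whose arrays do not overlap were common. In EPI 72.3% of all genes were apart and higher at E12.5 than at E11.5, 48.1% in OE E14.5 and 64.6% in VNO E14.5. In MES these shares were 23.9%, 22.8% and 24.2%. The comparisons with E11.5 share the same 3 arrays of a fraction and are not independent of each other.

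Acta2 had the largest change of the 7. Its values in EPI were 5.49, 5.36 and 6.15 on the arrays of the OPL E11.5 and 6.93, 7.12 and 6.83 on those of the OE E12.5. They were 10.09, 10.44 and 10.28 in the OE E14.5 and 11.23, 11.08 and 11.16 in the VNO E14.5. No pair of these groups overlapped, and the step between E12.5 and E14.5 was the widest. The OE at E14.5 exceeded the OPL by 4.60 ± 0.23 (SE, n = 3 and 3), which is 24.3-fold, with an adjusted p of 3.5e-04, and by 4.42 less the shift. The VNO exceeded the OPL by 5.49 ± 0.21, or 44.8-fold, with an adjusted p of 4.1e-05, and by 5.18 less the shift. Between OE E12.5 and OE E14.5 Acta2 rose 9.90-fold.

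In MES the Acta2 values were 7.19, 6.91 and 7.09 in the OPL E11.5, 8.89, 8.78 and 8.83 in the OE E12.5, 9.42, 9.54 and 9.58 in the OE E14.5 and 10.01, 9.61 and 9.88 in the VNO E14.5. Again no groups overlapped, but the widest step came earlier, between E11.5 and E12.5, at 1.77 ± 0.08 (adjusted p = 7.2e-04). By E14.5 Acta2 had risen by 2.45 ± 0.09 in the OE and by 2.77 ± 0.13 in the VNO. In the order of its levels over the 8 groups, MES OPL E11.5 and EPI OE E12.5 overlapped, and all other neighbours were apart.

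Tagln rose late in EPI. It stood at 5.75, 5.75 and 5.62 in the OPL E11.5, at 6.07, 5.92 and 6.14 in the OE E12.5, at 7.89, 7.52 and 7.65 in the OE E14.5 and at 8.17, 8.47 and 7.88 in the VNO E14.5. Only the OE and VNO at E14.5 overlapped. Its rise came after E12.5, with 1.64 ± 0.14 from OE E12.5 to OE E14.5 (adjusted p = 0.0013) and 1.98 ± 0.14 and 2.46 ± 0.16 over the whole interval in OE and VNO, or 1.80 and 2.15 less the shift. Between E11.5 and E12.5 it differed by 0.33 ± 0.10, which was under the limit and became -0.21 less the shift. In MES, Tagln was 6.45, 6.78 and 6.54 at E11.5 and 7.13, 7.26 and 7.30 at E12.5. It was 7.01, 7.09 and 7.17 in the OE E14.5 and 7.61, 7.13 and 7.49 in the VNO E14.5. The differences from E11.5 were 0.64 at E12.5, 0.50 in the OE E14.5 and 0.82 in the VNO E14.5, and none was called. The VNO difference was called, at 0.92 and 0.96, without array 2 of MES OPL E11.5 or of MES VNO E14.5.

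Cnn1 and Myh11 moved least among the contractile genes. Cnn1 lay between 3.82 and 5.66 and Myh11 between 4.75 and 6.07 on every array of the time course. Both stood below the median of all clusters on each of these arrays, and how far a low level limits a change was not tested. Cnn1 in EPI was 3.82, 4.39 and 4.21 at E11.5, 5.06, 5.20 and 4.92 at E12.5, 5.02, 4.90 and 4.97 in the OE E14.5 and 5.03, 4.87 and 4.94 in the VNO E14.5, so that only E11.5 stood apart. Its difference of 0.92 ± 0.17 between E12.5 and E11.5 was called, but was 0.38 less the shift, and fell under the limit without array 1 of OPL E11.5 (0.76) or array 2 of OE E12.5 (0.85). Without array 2 of the OPL its differences at E14.5, 0.82 in the OE and 0.81 in the VNO, were called at 0.95 and 0.93. In MES Cnn1 moved by 0.19 at most. Myh11 in EPI rose from 4.75, 4.80 and 4.75 in the OPL to 5.65, 5.73 and 5.70 in the VNO E14.5, by 0.92 ± 0.08 (adjusted p = 3.1e-04). That was 0.61 less the shift and then under the limit. In MES the 2 differences of Myh11 from E11.5 were 0.21 and 0.44, both under it.

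Other actins share long stretches of sequence with Acta2, and how far the probes tell them apart is not given in the sources used here. Acta1, the actin of skeletal muscle, stood in EPI at means of 5.42 at E11.5, 6.34 at E12.5, 7.56 in the OE E14.5 and 9.41 in the VNO E14.5. Actg2, the actin of enteric smooth muscle, stood at 4.06, 4.16, 5.62 and 6.17 in the same groups. In EPI OE E14.5 the difference from E11.5 was 2.14 for Acta1 and 1.56 for Actg2, against 4.60 for Acta2. In MES E12.5 against E11.5 it was 0.09 for Acta1 and 0.69 for Actg2, against 1.77 for Acta2. What part these genes have in the Acta2 values was not tested.

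Among the pericyte genes Rgs5 had the widest change. In EPI it stood at 4.99, 5.21 and 5.11 in the OPL E11.5, at 6.94, 6.70 and 7.0 in the OE E12.5, at 7.44, 8.21 and 8.10 in the OE E14.5 and at 8.0, 8.14 and 7.83 in the VNO E14.5. The OPL lay below all later groups, and OE and VNO at E14.5 overlapped. It rose by 1.78 ± 0.12 between E11.5 and E12.5 (adjusted p = 0.0012), and at 1.23 less the shift it was the one of the 7 still called after arrays were centred on their medians. By E14.5 it had risen by 2.81 ± 0.22 in the OE and 2.88 ± 0.11 in the VNO, or 7.04-fold and 7.39-fold, and by 2.64 and 2.57 less the shift. Its further step from E12.5 to the OE E14.5, 1.04 ± 0.23, was not called without array 2 of OE E12.5 (adjusted p = 0.051) or array 2 of OE E14.5 (0.89).

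In MES Rgs5 rose between E11.5 and E12.5, and its further step to the OE E14.5, at 0.60, was not called. It was 5.56, 5.76 and 5.91 at E11.5, 6.96, 6.95 and 7.04 at E12.5, 7.64, 7.57 and 7.53 in the OE E14.5 and 7.96, 7.58 and 7.76 in the VNO E14.5, with no overlap between stages. The rise was 1.24 ± 0.10 by E12.5, 1.83 ± 0.10 in the OE E14.5 and 2.02 ± 0.14 in the VNO E14.5. The second Rgs5 cluster, which has a lower mean, was called higher in the same EPI and MES comparisons, by 2.83 and 2.74 in EPI OE and VNO at E14.5 against E11.5 and by 2.24 and 2.88 in MES.

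Cspg4 was higher at E14.5 than at E11.5 in both fractions. In EPI it was 5.79, 6.05 and 5.56 in the OPL E11.5, 7.06, 6.97 and 7.18 in the OE E12.5, 8.07, 7.33 and 8.06 in the OE E14.5 and 7.94, 7.84 and 7.85 in the VNO E14.5. Array 2 of the OE E14.5 stood below the others of its group, and without it the step from E12.5 was called, at 1.00 in place of 0.75. Over the whole interval Cspg4 rose by 2.02 ± 0.25 in the OE and 2.08 ± 0.14 in the VNO, or 1.85 and 1.77 less the shift. In MES it was 7.25, 7.09 and 7.04 at E11.5, 7.89, 7.85 and 7.83 at E12.5, 8.60, 8.54 and 8.51 in the OE E14.5 and 8.37, 8.33 and 8.17 in the VNO E14.5, with all groups apart. It rose by 1.43 ± 0.07 in the OE (adjusted p = 1.6e-04) and by 1.16 ± 0.10 in the VNO.

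Pdgfrb did not share this course. In MES it was 10.79, 10.77 and 10.74 at E11.5, 10.60, 10.59 and 10.58 at E12.5, 10.60, 10.65 and 10.62 in the OE E14.5 and 10.35, 10.14 and 10.43 in the VNO E14.5. The E11.5 arrays lay above all others, by 0.14 to 0.46 between group means, and no difference reached the limit. In EPI it was 9.58, 9.89 and 9.26 at E11.5, 10.61, 10.35 and 10.48 at E12.5, 10.24, 9.52 and 10.02 in the OE E14.5 and 10.42, 10.40 and 10.28 in the VNO E14.5. The call at E12.5, at 0.90 ± 0.18, was lost without array 3 of the OPL (0.74), array 1 of the OE E12.5 (0.84) or its array 3 (0.90), and was 0.36 less the shift. Without array 2 of the OPL the VNO difference of 0.79 was called, at 0.95.

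**Figure D2:**
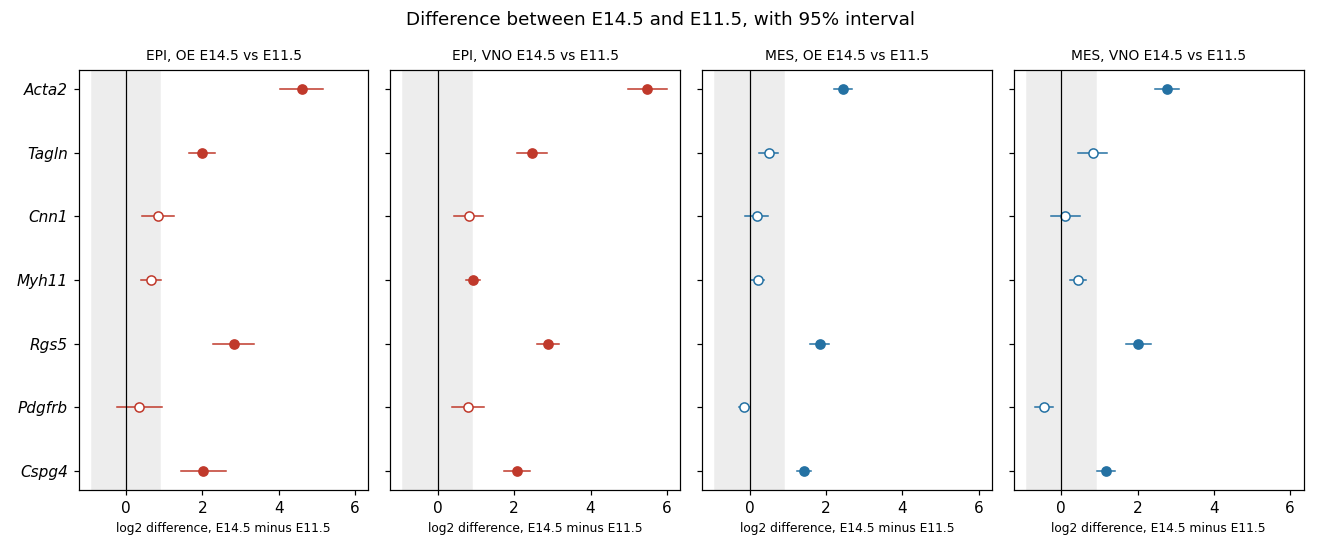
Log2 difference between E14.5 and E11.5 (x axis) for each gene (y axis), with EPI in red and MES in blue and the 95% interval of the limma fit as a line. Filled points were called, open points were not, and the grey band spans differences under 0.9. Acta2, Rgs5 and Cspg4 were called in all 4 comparisons, with Acta2 at 5.49 in EPI VNO and 2.77 in MES VNO, and Tagln was called in EPI alone.

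Between OE and VNO at E14.5 no gene of the 7 was called. In EPI limma called none of the 7, and 0.25% of all genes in either direction, while 3 of the 7 had an unadjusted p under 0.05 and Rank Products called none. The widest difference was that of Acta2, 0.89 higher in the VNO, with a 95% interval of 0.57 to 1.20 and an adjusted p of 0.065. In MES limma called none of the 7 and 1.39% of all genes, 4 had an unadjusted p under 0.05 and Rank Products called none. There Acta2 was 0.32 higher in the VNO (interval 0.03 to 0.62), and Pdgfrb and Cspg4 were 0.31 and 0.26 lower.

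For Acta2 the order of the fractions turned with age. At E11.5, 4 of the 7 were lower in EPI than in MES, where 25.6% of all genes were: Acta2 by 1.40, Cspg4 by 1.33, Pdgfrb by 1.19 and Cnn1 by 1.12. Less the shift these differences fell to -0.73, -0.67, -0.53 and -0.45, and after quantile normalisation or centring no gene of the 7 was called. Tagln, at -0.88, was called in 4 of the 6 fits that left out 1 array, at -0.90 to -0.95. At E12.5, 2 were lower in EPI (3.5% of all genes), Acta2 by 1.87 ± 0.09 (adjusted p = 9.8e-04) and Tagln by 1.19 ± 0.09 (adjusted p = 0.0014). The others differed by 0.79 or less, and Rgs5 by -0.10 with an interval of -0.35 to 0.14.

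At E14.5 the mean of Acta2 was higher in EPI than in MES, and so was that of Tagln, without a call. In the VNO, 1 of the 7 was called higher in EPI, where 2.74% of all genes were: Acta2 by 1.32 ± 0.12, or 2.49-fold, with an adjusted p of 9.8e-04. Tagln was 0.76 higher there and was called, at 0.91, without array 3 of EPI VNO E14.5. In the OE limma called none of the 7 and 7.35% of all genes in either direction. There 6 had an adjusted p of at most 0.05, 6 also an unadjusted p under 0.05, and Rank Products called none. Acta2 was 0.76 and Tagln 0.60 higher in EPI, with no overlap of arrays, as for 12.7% of all genes. Both exceeded the limit once arrays were centred, at 1.25 and 1.09, values that hold a median of 0.17 over all clusters left by centring. Cnn1, Myh11, Pdgfrb and Cspg4 were lower in EPI OE by 0.48, 0.34, 0.70 and 0.73, and for Cnn1 and Myh11 the sign turned after centring.

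**Figure D3:**
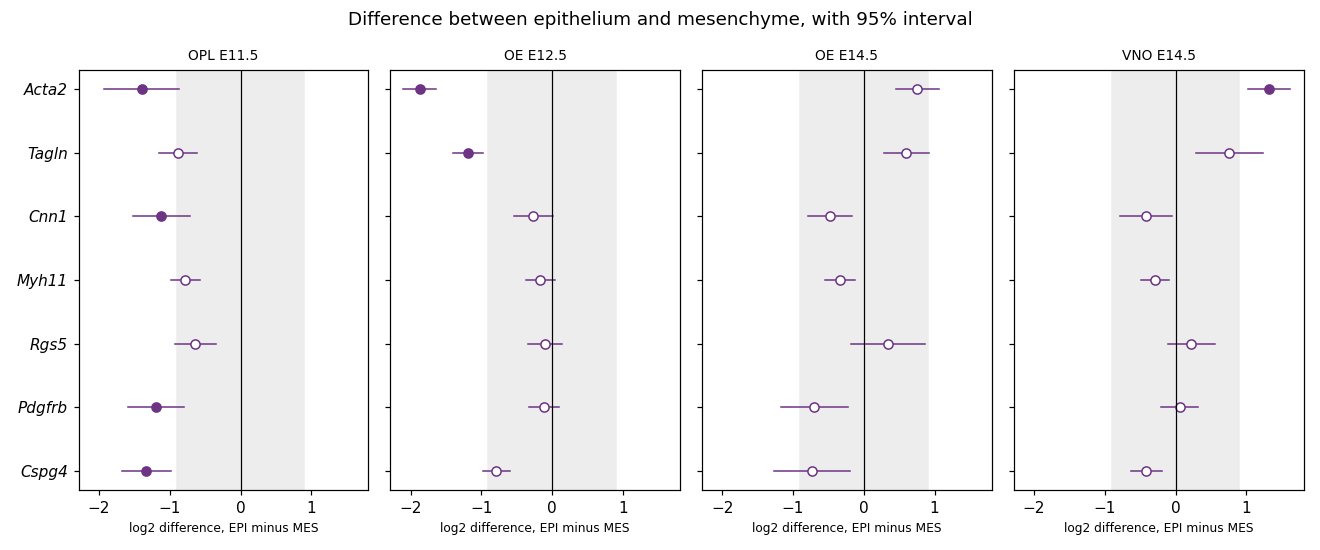
Log2 difference between EPI and MES (x axis) for each gene (y axis) at the 4 stages, with the 95% interval of the limma fit. Filled points were called, open points were not, and the grey band spans differences under 0.9. Acta2 went from -1.40 and -1.87 at E11.5 and E12.5 to 0.76 and 1.32 at E14.5, and Rgs5 stayed within 0.64 of 0.

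On the linear scale the EPI level of Acta2 was 39.0% of that in MES at E11.5, 27.4% at E12.5, 170% in the OE E14.5 and 248% in the VNO E14.5. For Tagln the shares were 54.1%, 43.9%, 152% and 170%. For Cspg4 they were 40.1%, 58.0%, 61.9% and 75.1%, so that as deposited, with the shift, it stayed below the MES throughout. Less the median of each array, Cspg4 overlapped between the fractions at E14.5. It then lay at 0.72 to 1.51 in EPI OE and 1.42 to 1.56 in MES OE. In the VNO it lay at 1.11 to 1.19 in EPI and 1.05 to 1.32 in MES. The study took the mesenchymal share of EPI samples to be 0.15. With that share of the MES level taken away, Acta2 in EPI stood at 4.90, 5.80, 10.13 and 11.07, and no gene of the 7 came down to the lowest value of its array. The calls of Acta2, Tagln, Rgs5 and Cspg4 at E14.5 against E11.5 held after this step. For each of them it lowered the log2 level at E11.5 more than at E14.5 and so widened the difference. Acta2 went from 5.67 to 4.90 in the OPL, but from 10.27 to 10.13 in the OE E14.5. That these calls held is therefore no check of them.

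Whether a gene moved more in EPI than in MES was tested on the difference of the 2 changes. This difference was past the test for 59.9% of all genes at E12.5 against E11.5, 43.4% for the OE and 62.1% for the VNO at E14.5 against E11.5, shares that hold the low scale of the EPI E11.5 arrays. Of the 7 genes, 5, 5 and 7 were past it in these comparisons, and all 17 lay towards EPI. So did most of all genes past it, 8335 of 8865, 5950 of 6427 and 8440 of 9192. Acta2 rose more in EPI by 2.15 ± 0.26 in the OE and by 2.71 ± 0.27 in the VNO, and Tagln by 1.48 ± 0.17 and 1.64 ± 0.23. Those 4 remained past the test after centring and quantile normalisation, as did Pdgfrb in the VNO at 1.25 ± 0.20, where EPI differed from E11.5 by 0.79 and MES by -0.46. At E12.5 Acta2 moved less in EPI than in MES, by -0.47 ± 0.25, which was not past the test as deposited and was past it after centring, at -1.0, or quantile normalisation, at -1.03. Tagln, at -0.31 ± 0.14 as deposited, also passed after both, at -0.84 and -0.94.

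The second Rgs5 cluster differed from the first in this test. The first moved more in EPI by 0.54, 0.98 and 0.86 in the 3 comparisons with E11.5, all past the test, and the second by -0.23, 0.59 and -0.14, none past it. For the VNO against the OE at E14.5, 5.98% of all genes were past the test and limma placed none of the 7 there. Of the 7, 2 had an unadjusted p under 0.05, Acta2 at 0.56 and Pdgfrb at 0.76. Pdgfrb was past the test, at 0.91, without array 1 of EPI OE E14.5. Array 2 of the same group stood low for Pdgfrb and Cspg4, and without it both were past the test in the OE, at 0.70 and 0.84 in place of 0.49 and 0.60.

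Other genes of smooth muscle moved less than Acta2. Of 24 contractile and regulatory genes listed, 19 could be read, and none of the 7 is among them. In EPI 1 was higher at E12.5 than at E11.5, 4 in the OE E14.5 and 7 in the VNO E14.5, and none was lower. Of all genes, 17.6%, 14% and 20.5% were called higher in these comparisons. The median differences of the list were 0.58, 0.51 and 0.71 where those of all genes were 0.54, 0.32 and 0.45. In the VNO the widest rises were those of Casq2, a calcium-binding protein of muscle stores, at 3.35, of Des, the intermediate filament desmin, at 2.78, and of Actg2 at 2.10. Casq2 and Des are shared with striated muscle. Actg2, more restricted to smooth muscle, was called, and the remaining called genes of this list are not named here. Smtn and Lmod1, also more restricted, were not called. They were picked after their values were seen and do not stand for the 19. Smtn stood at a mean of 7.59 in the EPI OPL and 8.17 in the VNO and Lmod1 at 4.93 and 5.61. In MES none of the 19 was called at E12.5 or in the OE E14.5 and 1 in the VNO E14.5, Mylk, the kinase of myosin light chain, at 1.39. The shares of all genes called higher there were 1.44%, 5.06% and 6.35%.

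Of 23 other genes of pericytes and mural cells, 20 could be read. In EPI 5 were higher at E12.5 than at E11.5, 8 in the OE E14.5 and 9 in the VNO E14.5, where 1 was lower. The shares of all genes called higher in these comparisons were 17.6%, 14% and 20.5%, and the median differences of the list were 0.69, 0.91 and 0.80, where those of all genes were 0.54, 0.32 and 0.45. In the VNO Angpt1, the angiopoietin that mural cells give to endothelium, rose by 3.34, the forkhead factor Foxf2 by 2.07 and the gap junction gene Gja4 by 1.54. In the OE Angpt1 rose by 2.37, Tbx18 by 2.20 and Foxf2 by 1.61. In MES, 2 were higher and none lower at E12.5, 1 was higher and 4 lower in OE E14.5, and 2 were higher and 5 lower in VNO E14.5. Of all genes 1.44%, 5.06% and 6.35% were called higher in MES and 0.162%, 2.49% and 3.38% lower. The medians of the list there were 0.04, -0.21 and 0.06, beside 0.03, -0.10 and -0.07 over all genes. In the MES OE the forkhead gene Foxc2 fell by 2.15, Foxf2 by 1.59 and Tbx2 by 1.43, and Angpt1 rose by 1.73. Kcnj8 and Abcc9, which form the potassium channel of pericytes, rose in EPI OE by 1.44 and 1.56 and in MES OE stood at 6.52 and 7.26 at E14.5 after 6.52 and 6.66 at E11.5.

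All 16 genes listed for signals to mural cells could be read. In EPI 5 were higher at E12.5 than at E11.5, 6 in the OE E14.5 and 9 in the VNO E14.5, with median differences of 0.66, 0.81 and 0.95 beside 0.54, 0.32 and 0.45 over all genes, of which 17.6%, 14% and 20.5% were called higher. In the VNO the TGF-beta receptor Tgfbr2 rose by 1.88, the ligand Angpt2 by 1.56 and the co-receptor Eng by 1.53. Pdgfb, the ligand of the Pdgfrb receptor, rose by 1.00 in the OE and 1.12 in the VNO. Notch3, the Notch receptor of mural cells, rose by 0.97 at E12.5 and fell by 1.13 from there to the OE E14.5. Less the shift these differences were 0.43 and -0.80, both under the limit. In MES 3 were higher at E12.5, among them the Notch target Hey2 at 1.52 and the Notch ligand Jag1 at 0.99, and 1 in the OE E14.5. The shares of all genes called higher there were 1.44% and 5.06%. In the MES VNO none was higher, and Hey2 was 0.97 lower.

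Markers of other cells were also higher in EPI at E14.5 than at E11.5, in comparisons where 14% of all genes in the OE and 20.5% in the VNO were called higher and the median differences of all genes were 0.32 and 0.45. Of 17 genes of endothelium 9 were higher in the OE E14.5 than at E11.5 and 11 in the VNO E14.5, with their mean level on each array at 6.72 to 6.94 in the OPL, 7.73 to 7.91 in the OE and 8.07 to 8.11 in the VNO and median differences of 0.92 and 1.21. Of 13 genes of skeletal muscle 8 and 12 were higher, with mean levels of 4.76 to 4.90, 6.0 to 6.20 and 7.55 to 7.64 and median differences of 1.15 and 3.03, and in the VNO Tnnc1 rose by 5.08, Acta1 by 3.99 and Myl1 by 3.98. Of 11 genes of fibroblasts 9 and 10 were higher, with mean levels of 8.53 to 8.87, 10.66 to 10.95 and 11.09 to 11.13 and median differences of 1.62 and 1.71. In MES, where Acta2, Rgs5 and Cspg4 also rose, 1 of the 17 endothelial genes was higher in each tissue at E14.5, 3 of the 13 skeletal muscle genes in each and 5 of the 11 fibroblast genes higher and 1 lower in each. Other lists differed more in MES, where 5.06% and 6.35% of all genes were called higher in OE and VNO and 2.49% and 3.38% lower. In each tissue 8 of 9 genes of the olfactory neuron lineage and 9 of 11 epithelial genes were higher at E14.5 than at E11.5. Of 8 erythroid genes 6 and 7 were lower, with median differences of -1.88 in the OE and -1.75 in the VNO. The part of these cells in the values of the 7 genes was not tested.

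**Figure D4:**
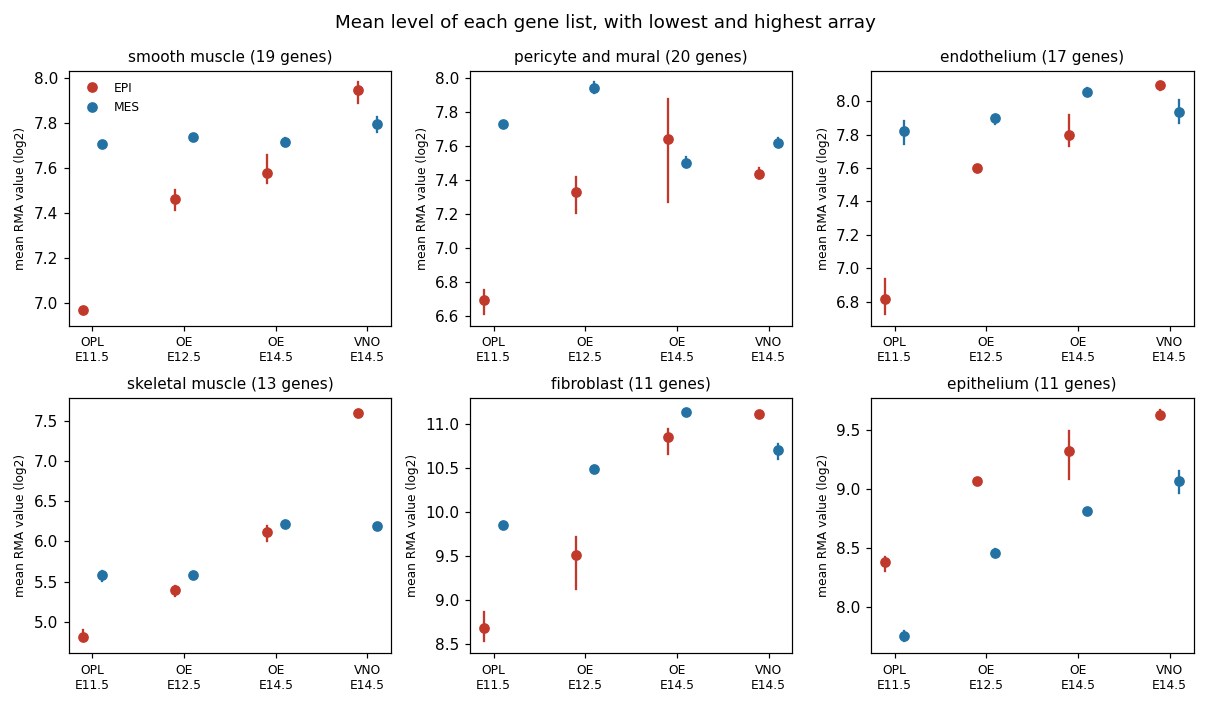
Mean RMA value on the log2 scale (y axis) over the genes of 6 lists, each panel on its own scale, by stage and tissue (x axis), with EPI in red and MES in blue. Points are means over 3 arrays and lines run from the lowest to the highest array. The skeletal muscle list reached 7.60 in EPI VNO E14.5 and 6.19 in the MES of that tissue, and the epithelium list in MES went from 7.76 at E11.5 to 9.07 in the VNO E14.5.

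The genes varied together to different degrees over the arrays, read after centring. The correlations that follow are descriptions over 12 arrays of a fraction, which share stages and pools of tissue. In EPI Acta2 correlated with Tagln at 0.96, Myh11 at 0.96, Rgs5 at 0.93 and Cspg4 at 0.91, with Cnn1 at 0.73 and with Pdgfrb at 0.34. In MES Acta2, Rgs5 and Cspg4 correlated with each other at 0.94 to 0.99, and Pdgfrb correlated negatively with all of the other 6, from -0.10 with Cnn1 to -0.78 with Tagln. By the lower of its 2 correlations, over the EPI and over the MES arrays, the genes most like Acta2 were Ccdc80, Itm2a and Anxa5, at 0.98 each. For Rgs5 they were Cd82 at 0.98, Tgm2 at 0.97 and Nrp1 at 0.97, and for Cspg4 Itpr2 at 0.98, Tgfbr2 at 0.98 and Nfic at 0.97. For Tagln they were Upk1b at 0.95, Mboat1 at 0.93 and Fzd6 at 0.92, and for Myh11 1700088E04Rik, Krt4 and Ccdc65, at 0.95 each. The values were lower for Cnn1, with Cd74 at 0.84, Wfdc1 at 0.82 and Fosl1 at 0.81, and for Pdgfrb, with Sash1, Nfatc4 and Kirrel at 0.82 to 0.84.

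The Dlx5 comparison asked which genes depend on this homeobox factor in the nasal epithelium. Dlx5 itself was 10.94, 11.03 and 10.98 on the WT arrays and 10.24, 10.30 and 10.17 on the Dlx5 KO arrays. The groups were apart, by -0.75 ± 0.09, but the adjusted p was 0.12 and the level in the mutant stayed high. Where the probes lie on the Dlx5lacZ allele is not given in the sources used here, so this checks the labels only in part. Of all 14860 genes limma called 1 in either direction, which is 0.00673%. It called none of the 7, of which 3 had an unadjusted p under 0.05, and Rank Products called 1. Over all genes Rank Products called 21 higher and 89 lower.

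Rgs5 had the widest difference. It was 9.33, 9.53 and 9.28 in WT and 7.75, 8.36 and 8.50 in Dlx5 KO, so that the groups were apart, by -1.18 ± 0.21 with an interval of -1.67 to -0.69 and an adjusted p of 0.18. It was the gene called by Rank Products, and its second cluster differed by -1.35 (adjusted p = 0.17). The study, which used Rank Products, also has Rgs5 among its genes that differ between Dlx5-null and WT OE. Which cells hold this difference was not tested. Acta2 was 8.95, 9.28 and 9.09 in WT and 8.01, 8.18 and 8.83 in Dlx5 KO, apart by -0.76 ± 0.22 (interval -1.30 to -0.23, adjusted p = 0.27). Pdgfrb went the other way, with 11.45, 11.28 and 11.41 in WT and 12.09, 12.02 and 11.86 in Dlx5 KO, apart by 0.61 ± 0.10 (interval 0.36 to 0.86, adjusted p = 0.17). Cspg4 was 0.42 higher in Dlx5 KO, with an interval of -0.05 to 0.89. Its arrays, at 8.18, 8.16 and 8.23 in WT and 9.03, 8.56 and 8.24 in Dlx5 KO, were only just apart. Less the median of each array they overlapped. Of all genes, 9.80% were apart and higher in Dlx5 KO, and 14.0% were apart and lower.

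Tagln, Cnn1 and Myh11 overlapped between WT and Dlx5 KO. Their differences were -0.01, 0.13 and -0.05, with intervals that lay within -0.30 and 0.44. None of the 19 other smooth muscle genes, the 20 other mural genes, the 16 signal genes or the 17 endothelial genes was called by limma. Their mean levels overlapped between genotypes, with 9.10 to 9.11 in WT and 9.08 to 9.21 in Dlx5 KO for smooth muscle and 8.95 to 9.02 and 8.84 to 9.10 for endothelium. Among the other mural genes Angpt1 differed by 1.01, with an adjusted p of 0.15. The mean level of 9 genes of the olfactory neuron lineage was 11.45 to 11.63 in WT and 10.36 to 11.23 in Dlx5 KO. That of 11 genes of fibroblasts was 10.53 to 10.59 in WT and 10.82 to 11.003 in Dlx5 KO, and that of 8 genes of glia and neural crest 9.57 to 9.73 and 9.02 to 9.36. These 3 lists did not overlap between genotypes, and their part in the values of the 7 genes was not tested.

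**Figure D5:**
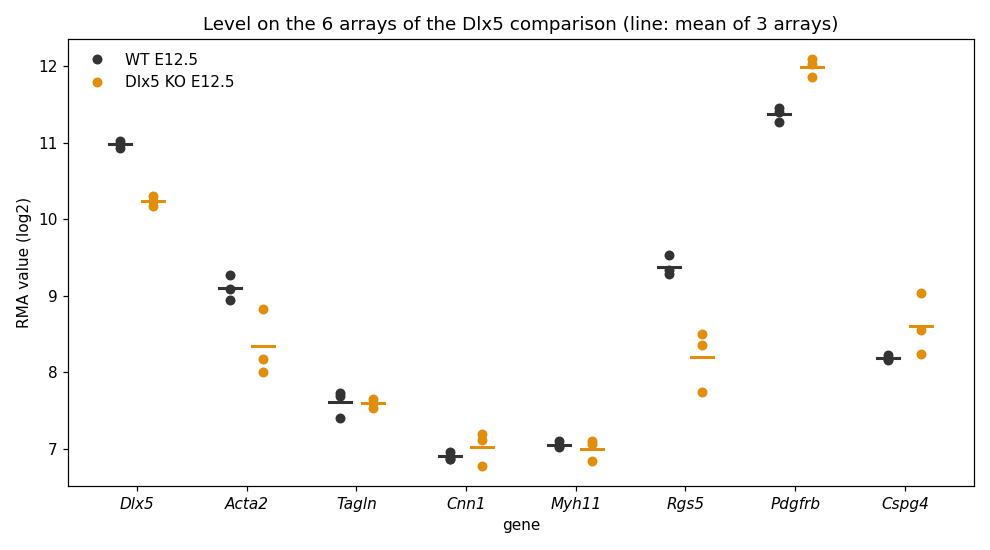
Level of Dlx5 and of the 7 genes (x axis) as RMA value on the log2 scale (y axis) on the 3 WT arrays, in dark grey, and the 3 Dlx5 KO arrays, in orange. Points are arrays and bars are means. Rgs5 lay at 9.28 to 9.53 in WT and at 7.75 to 8.50 in Dlx5 KO, and Pdgfrb at 11.28 to 11.45 and 11.86 to 12.09.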

How the data were processed

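The series was deposited by the authors as 1 table of log2 values made by RMA, with 23339 transcript clusters and 30 arrays. The submitters' notes name RMA, with no version, and the mm9 build, and the methods name a separate run for each pairwise comparison. Of the clusters, 101 are empty on the time course and 7 on the Dlx5 arrays, and the medians of the sets differ, so tests stayed within each set. Symbols came from the platform gene table, updated through RefSeq.

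Each pair of groups was compared by limma 3.58.1 (lmFit, eBayes) in R 4.3.3 on its 6 arrays, two-sided, with Benjamini-Hochberg adjustment over all clusters. Calls took both the adjusted p (0.05 or less) and the log2 difference (0.9 or more). The difference of 2 changes was a contrast over 12 arrays, judged on the adjusted p alone. The methods' Rank Products, with 100 permutations, is an alternative. Other alternatives were quantile normalisation, centring, a single fit over 24 arrays, a replicate block, clusters brighter than the median, no minimum difference, the mean of a gene's clusters, a MES share of 0.15 taken away and leaving out each array. The code was tested on simulated data.

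The members and lists were chosen with earlier results of these data known. All 7 genes were named, and of each list at most 3 called genes of widest difference in a direction. Smtn, Lmod1, Kcnj8, Abcc9, Notch3, Pdgfb, Epcam, Acta1, Actg2 outside the VNO, and Angpt1 in the mutant were named after their values were seen. Having 3 arrays to a group limits the precision. No background reading of the probes was used here, so a low level is not called absent. Same-numbered arrays were not treated as pairs.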

Additional observations from a re-analysis of the deposited data

Results flagged for a closer look

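For 17 results the change from E11.5 differed between EPI and MES by the test of that difference, always towards a higher value in EPI. Over all genes 59.9%, 43.4% and 62.1% were past the same test at E12.5, in the OE E14.5 and in the VNO E14.5. Of these genes 8335 of 8865, 5950 of 6427 and 8440 of 9192 lay towards EPI. The EPI arrays of E11.5 have the lowest medians of the time course. At E12.5 the differences were 0.85 for Cnn1, 0.61 for Myh11, 0.54 for Rgs5, 1.07 for Pdgfrb and 0.54 for Cspg4. In the OE E14.5 they were 2.15 for Acta2, 1.48 for Tagln, 0.64 for Cnn1, 0.44 for Myh11 and 0.98 for Rgs5. In the VNO E14.5 they were 2.71 for Acta2, 1.64 for Tagln, 0.70 for Cnn1, 0.49 for Myh11, 0.86 for Rgs5, 1.25 for Pdgfrb and 0.92 for Cspg4. Those of Acta2 and Tagln at E14.5 and of Pdgfrb in the VNO, 5 of the 17, were past the test under every alternative run. That of Cnn1 missed the test in the OE without 1 of 8 arrays, among them array 1 of EPI OPL E11.5 (0.48), and in the VNO without 1 of 6, among them the same array (0.54).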

How the results depend on the processing

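Of 32 calls of a gene between groups, 19 held under every alternative run and 29 without each array in turn. Among the 19 are those of Acta2 and Rgs5 at E14.5 against E11.5 in both fractions, Tagln in EPI, and Cspg4 in EPI and in MES OE. At EPI E12.5 against E11.5 the count of 5 became 1 after quantile normalisation and after centring, and 0 by Rank Products. Among clusters brighter than the median it was 1, since the other called genes were not tested there. Tagln turned to -0.35 and -0.25 after quantile normalisation and centring, and Myh11 to -0.10 after the first. Bright clusters alone left 3 genes at EPI VNO against E11.5 and 1 at MES E12.5, where fewer genes were tested. No gene of the 7 tested among bright clusters lost a call, so each lower count there reflects genes left out. With no minimum difference 4 genes passed in MES at E12.5 and 4 between MES OE E14.5 and E12.5 (1 after quantile normalisation), 5 in MES OE and 6 in MES VNO against E11.5. For EPI against MES at E11.5 the count of 4 became 0 after quantile normalisation, centring or Rank Products, 1 among bright clusters and 7 with no minimum, Myh11 turned to 0.013 and Rgs5 to 0.12 after quantile normalisation, and Rgs5 to 0.023 after centring. At E12.5 Rank Products left 1, Acta2, which was also the only called gene tested among bright clusters. In the OE E14.5 quantile normalisation called 1, centring 2 and no minimum 6, Cnn1 turned to 0.32 and 0.014 and Myh11 to 0.41 and 0.16. In the VNO E14.5 both gave 2 and no minimum 4, and Myh11 turned to 0.24 and 0.063. For Dlx5 KO, Rank Products called 1 gene, Rgs5. The difference of changes was past the test for 3 genes after quantile normalisation and 2 after centring at E12.5, where Myh11 and Rgs5 turned to -0.092 and -0.095 after the former, for 3 after either in the OE, and for 3 after quantile normalisation in the VNO. Rank Products took away Myh11 in EPI VNO, Rgs5 between EPI OE E14.5 and E12.5, Cspg4 in MES VNO and Tagln between fractions at E12.5. A MES share taken away ended the call of Acta2 at EPI E12.5 (0.90, adjusted p = 0.074) and added Cnn1 at E14.5 and Pdgfrb in the VNO. Apart from what the settings themselves fix, the cause of these changes was not tested.

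Leaving out 1 array gave counts of 4 to 5 at EPI E12.5, 2 to 3 at EPI OE E14.5 against E12.5, 4 to 5 and 5 to 7 at EPI OE and VNO against E11.5, 3 to 4 at MES VNO, 4 to 5 between fractions at E11.5 and 1 to 2 in the VNO, with 5 to 6, 4 to 7, 6 to 7 and 0 to 1 for the differences of changes. The other counts did not move.

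Over all genes, EPI E12.5 against E11.5 gave 207 higher and 270 lower after quantile normalisation, and 39 and 56 by Rank Products. EPI OE E14.5 against E12.5 turned from 469 and 921 to 1446 and 180 after centring. EPI OE and VNO against E11.5 gave 2073 and 187, and 3039 and 125, which centring made 1350 and 344, and 1489 and 415. Quantile normalisation gave 864 and 223 in MES OE, 1000 and 288 in MES VNO, in place of 749 and 368, and 940 and 501. In Dlx5 KO, Rank Products called 21 higher and 89 lower.

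No comparison had same-numbered arrays that all deviated together (correlations from -0.18 to 0.27). The replicate block changed 1 call, that of Cnn1 in the difference of changes in the OE, at 0.64 with an adjusted p of 0.055. Between tissues at E14.5 it left 0 genes over all, in place of 37 in EPI and 206 in MES.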
